A study of Mus musculus with 30 samples.

Results

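Plasma cell programme genes were followed in mouse lymphoma cells under mafosfamide and in sub-clones selected for resistance to it. The 6 genes, Irf4, Prdm1, Xbp1, Mzb1, Sdc1 and Tnfrsf17, were chosen by name, and each was read from the probe set that the platform annotation assigned to that symbol alone. Each had 1 such probe set, so all 6 were measured, among 19937 genes in all. Expression had been measured on 30 Affymetrix Mouse Gene ST 1.0 arrays, 1 culture per array, and values are log2 expression after robust multi-array averaging (RMA).

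All cultures were Eμ-Myc B cells on a C57BL/6J background. They carried the Eμ-Myc transgene, in which an immunoglobulin heavy chain enhancer drives Myc in B-lineage cells, and a homozygous Cdkn2a deletion, and they shared flasks with irradiated Cdkn2a-/- mouse embryonic fibroblasts as feeders. The parental line was sampled at 0, 6, 12, 24 and 48 h after mafosfamide, an alkylating agent active in culture, was added to 750 nM (n = 5, 4, 4, 5 and 5). The resistant sub-clones R100, R500, R1000 and R4000 came from successive steps in a single escalation of dose, with selection at 100, 500, 1000 and 4000 nM. An untreated array exists for each sub-clone, and all but R100 have a further array of cells treated for 24 h with 750 nM. All cells descend from 1 lymphoma line, so p-values measure the spread between its cultures, and the resistant lines are related to each other.

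Plasma cells are the antibody-secreting end stage of the B lineage. Irf4 and Prdm1 encode the transcription factors that move an activated B cell towards this state, Prdm1 (Blimp-1) as a repressor of the B-cell programme, and Xbp1 encodes the factor that enlarges the endoplasmic reticulum (ER) for secretion after its mRNA is spliced by the ER stress sensor IRE1 (Ern1). Mzb1 encodes an ER cochaperone for antibody assembly, Sdc1 the surface proteoglycan syndecan-1 (CD138), and Tnfrsf17 the receptor BCMA, through which APRIL sustains plasma cells. An array level of Xbp1 counts spliced and unspliced mRNA together.

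Promoter sequence was taken from RefSeq (assembly GRCm38.p6) for the 2 transcription factor genes whose levels the results turn on most, Xbp1, which rose, and Irf4, which stood lower at 24 h. The 250 bases before the annotated start are given 5′ to 3′ on the gene strand, and capitals mark matches to letters searched on both strands: CCAAT and CCACG (the ends of the ER stress response element), ACGTG (in the unfolded protein response element) and CAGGTG (an E-box of the kind bound by E2A). The Xbp1 window is chr11:5520391-5520640 and the Irf4 window chr13:30748983-30749232, both on the + strand.
Xbp1: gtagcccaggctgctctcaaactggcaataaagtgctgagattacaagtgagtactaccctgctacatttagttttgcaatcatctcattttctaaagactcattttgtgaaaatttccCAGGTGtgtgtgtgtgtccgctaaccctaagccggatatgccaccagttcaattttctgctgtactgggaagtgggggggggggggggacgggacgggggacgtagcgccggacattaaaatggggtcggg
Irf4: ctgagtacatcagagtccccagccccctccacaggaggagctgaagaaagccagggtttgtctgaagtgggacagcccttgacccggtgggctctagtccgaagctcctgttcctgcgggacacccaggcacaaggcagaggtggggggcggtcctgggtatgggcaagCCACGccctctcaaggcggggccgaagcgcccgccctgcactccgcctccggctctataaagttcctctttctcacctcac
The Xbp1 window held CAGGTG, beginning 131 bases before the start, and the Irf4 window held CCACG, beginning 81 bases before it. Of 32851 mouse promoter windows of the same length, 33.8% held the letters CCAAT. The letters CCACG stood in 28.3% of the windows, ACGTG in 16.6% and CAGGTG in 17.2%. Of the 5 members with a window in the table, Prdm1 held the CCAAT letters, CCACG at 2 places and the E-box. Sdc1 held the letters of both ends of the ER stress element, but far apart, CCAAT at 82 and CCACG at 168 bases before the start. Tnfrsf17 held none of the letters. These are matches of letters, and they say nothing about binding.

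Array medians over genes lay between 7.48 and 7.67. On the fifth 0 h array the values were compressed, with an interquartile range of 2.97 where all others had at least 3.36. The mean of 10 measured B-cell surface genes lay between 10.78 and 11.50 in parental cells. The mean of 11 T and NK cell genes lay between 6.21 and 6.54 and that of 10 myeloid genes between 6.84 and 7.17. The mean of 30 fibroblast genes, which report the feeder cells, was 8.11 ± 0.21, 7.96 ± 0.15, 8.20 ± 0.21, 8.91 ± 0.52 and 8.41 ± 0.45 (SD) for the hours in sequence. At 24 h 15 of these 30 genes rose, against 4.35% of all genes, and the array means ran from 8.17 to 9.58. At 0 h they ran from 7.94 to 8.44. Within a bulk culture, fewer cells of a type and less RNA per cell cannot be told apart.

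To determine when the programme responded to the drug, limma was used to set every later time against 0 h. At 24 h Xbp1, Mzb1 and Sdc1 rose and Tnfrsf17 fell, 4 of the 6 genes against 6.78% of all 19937 genes. At 12 h Mzb1 alone rose (1 of 6, against 0.512% of all genes). At 6 h and 48 h limma called 0 of the 6, against 0.0201% and 0.251% of all genes. At these times 2 and 4 members had an unadjusted p under 0.05, against 5.13% and 11.7% of all genes. The calls were changes of at most 1.34-fold, and none of the 4 at 24 h passed when the other times were left out of the model.

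**Figure D1:**
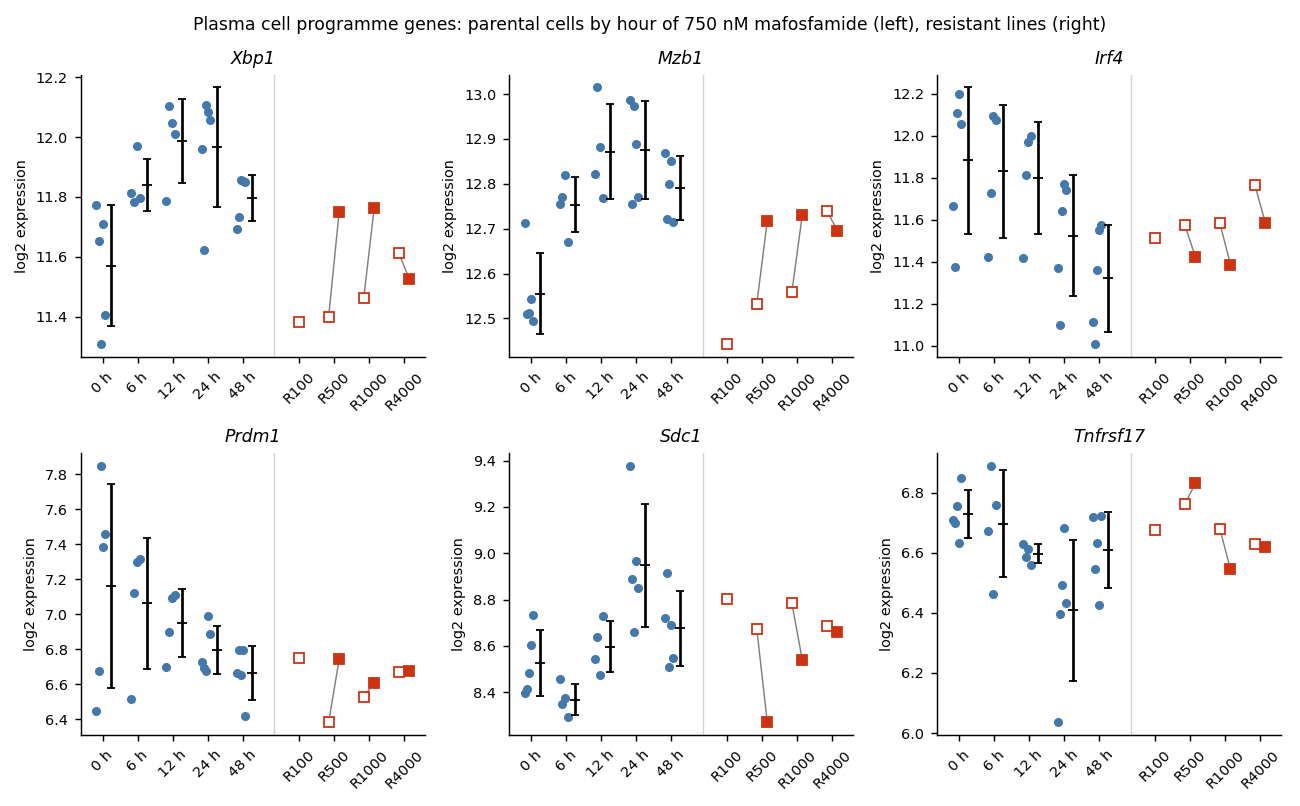
Log2 expression of each gene on each array (y axis) in parental cells by hour of 750 nM mafosfamide (blue, with mean and SD in black) and in the resistant lines (red squares, open untreated, filled after 24 h of drug, joined within a line). The 5 Mzb1 arrays at 24 h lay at 12.75 or above and the 5 at 0 h at 12.71 or below.

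Xbp1 stood at 11.77, 11.65, 11.31, 11.71 and 11.41 on the 0 h arrays (numbers 1 to 5). It stood at 11.81, 11.78, 11.97 and 11.80 at 6 h (numbers 2 to 5) and at 11.79, 12.10, 12.05 and 12.01 at 12 h. At 24 h the values were 11.96, 11.62, 12.11, 12.08 and 12.06, and at 48 h 11.69, 11.73, 11.86, 11.85 and 11.85. All arrays at 6 h and 12 h lay above the highest 0 h array, while at 24 h the second array and at 48 h the first and the second lay inside the 0 h range. The difference from 0 h was 0.27 (SE 0.10, adjusted p = 0.794) at 6 h and 0.42 (SE 0.10, adjusted p = 0.0689) at 12 h. It was 0.40 at 24 h (SE 0.10, 1.32-fold, adjusted p = 0.0198), where Xbp1 rose. At 48 h it was 0.23 (adjusted p = 0.382). The group means ran in the order 12 h (11.99 ± 0.14), 24 h (11.97 ± 0.20), 6 h (11.84 ± 0.09), 48 h (11.80 ± 0.08) and 0 h (11.57 ± 0.20), and each group overlapped with the next. The 24 h call rested on single arrays: without the third or the fifth 0 h array the adjusted p was 0.0624 and 0.0536, and without the fourth 24 h array 0.0504.

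Mzb1 gave the smallest p of the 6 genes at 12 h and 24 h. At 0 h it stood at 12.71, 12.51, 12.51, 12.54 and 12.49, at 6 h at 12.75, 12.77, 12.82 and 12.67, and at 12 h at 12.82, 13.01, 12.88 and 12.77. At 24 h it stood at 12.99, 12.75, 12.97, 12.89 and 12.77, and at 48 h at 12.87, 12.72, 12.80, 12.85 and 12.71. The 12 h and 24 h arrays did not overlap with 0 h. Those at 48 h did not either, but their lowest value (12.7138) stood barely above the highest at 0 h (12.7126). The highest 0 h value came from the first array alone. Mzb1 rose by 0.32 at 12 h (SE 0.07, 1.25-fold, adjusted p = 0.0337) and by 0.32 at 24 h (SE 0.06, 1.25-fold, adjusted p = 0.0064). The differences at 6 h (0.20, SE 0.07, adjusted p = 0.673) and 48 h (0.24, SE 0.06, adjusted p = 0.15) did not pass the test. The group means were 12.87 ± 0.11 at 12 h and 12.87 ± 0.11 at 24 h. They were 12.79 ± 0.07 at 48 h, 12.75 ± 0.06 at 6 h and 12.55 ± 0.09 at 0 h. The 4 treated groups overlapped. The 24 h call held when any single array was left out. The 12 h call was lost without either the third or the fourth 12 h array, or without the third or the fifth 0 h array. It was also lost after median centring (adjusted p = 0.0815).

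**Figure D2:**
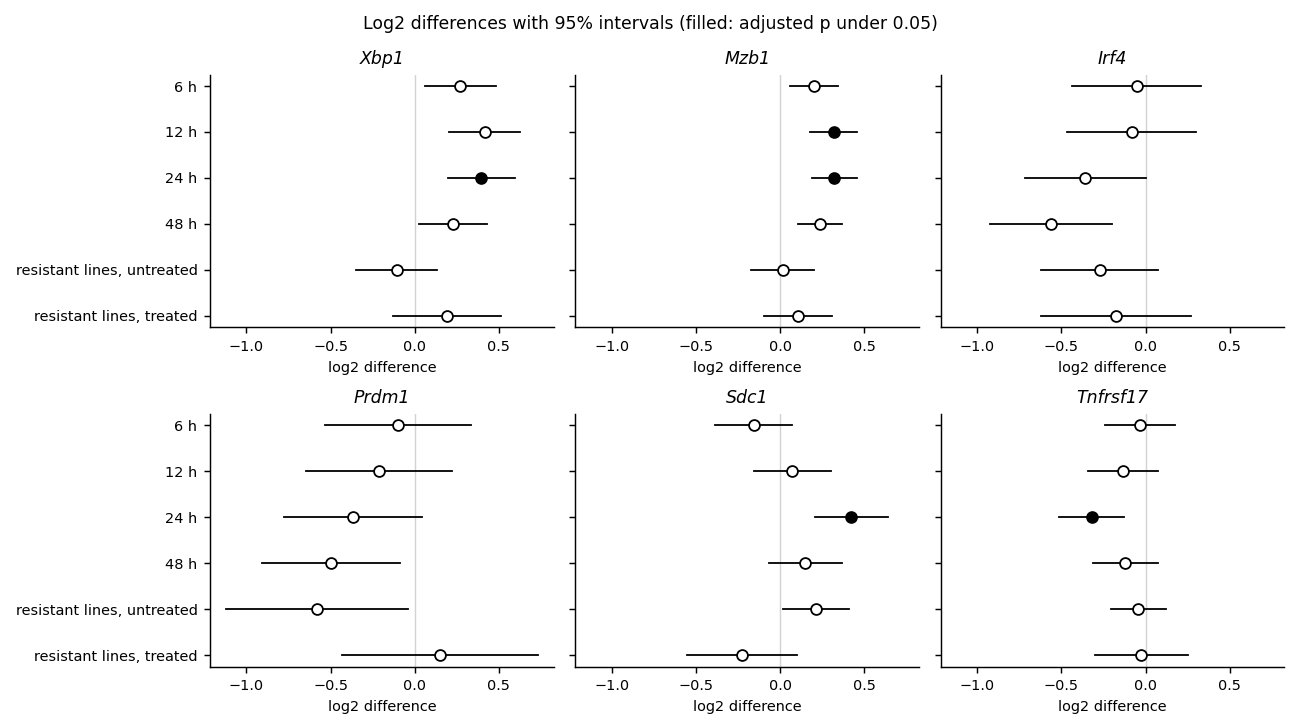
Log2 difference (x axis, with 95% interval) of each gene in parental cells at 6, 12, 24 and 48 h against 0 h, in untreated resistant lines against parental 0 h, and in treated against untreated resistant lines. Filled points had an adjusted p under 0.05: Mzb1 at 12 h, and Xbp1, Mzb1, Sdc1 and Tnfrsf17 at 24 h.

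The surface genes moved in opposite directions at 24 h. Sdc1 stood at 8.40, 8.41, 8.48, 8.60 and 8.73 at 0 h and at 9.38, 8.89, 8.66, 8.97 and 8.85 at 24 h, where it rose by 0.42 (SE 0.10, 1.34-fold, adjusted p = 0.0214). The first 24 h array was the highest and the third lay inside the 0 h range. Between these times Sdc1 stood at 8.46, 8.35, 8.37 and 8.29 at 6 h and at 8.54, 8.64, 8.47 and 8.73 at 12 h, and afterwards at 8.72, 8.91, 8.51, 8.69 and 8.55 at 48 h. All 3 of these groups overlapped with 0 h, with differences of -0.16, 0.07 and 0.15. From the highest mean to the lowest the order was 24 h (8.95 ± 0.27), 48 h (8.68 ± 0.16), 12 h (8.60 ± 0.11), 0 h (8.53 ± 0.14) and 6 h (8.37 ± 0.07), and each group overlapped with its neighbours. The 24 h call of Sdc1 was lost after housekeeping centring (adjusted p = 0.0565) and without the third 0 h array (adjusted p = 0.0524).

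Tnfrsf17 stood at 6.71, 6.70, 6.76, 6.63 and 6.85 at 0 h and at 6.04, 6.40, 6.49, 6.68 and 6.43 at 24 h. The first 24 h array was the lowest of all, and the fourth lay inside the 0 h range. All Tnfrsf17 values lay below the array medians over genes (7.48 to 7.67), at low signal, where RMA compresses differences. The mean of the T and NK cell genes was close by, at 6.21 to 6.54 in parental cells. At 24 h 1 of these 11 genes lay above 0, with a median of -0.09. Tnfrsf17 fell by 0.32 (SE 0.09, adjusted p = 0.044), the weakest of the 4 calls at 24 h. It was lost without any one of the first, the second or the fifth 24 h array, or the second, the third or the fifth 0 h array. The values were 6.67, 6.89, 6.46 and 6.76 at 6 h, 6.63, 6.59, 6.61 and 6.56 at 12 h, and 6.72, 6.55, 6.63, 6.43 and 6.72 at 48 h. No difference at these times passed the test (-0.03, -0.13 and -0.12). The means were 6.73 ± 0.08 at 0 h, 6.70 ± 0.18 at 6 h, 6.61 ± 0.13 at 48 h, 6.60 ± 0.03 at 12 h and 6.41 ± 0.24 at 24 h, in this order, and each group overlapped with the next.

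Within the parental groups, fibroblast genes moved with Sdc1 and, more weakly, against Tnfrsf17. Over the 23 parental arrays, with group means removed, the correlation with the fibroblast mean was 0.79 for Sdc1 and -0.44 for Tnfrsf17, against -0.31 for Xbp1, -0.25 for Irf4, -0.12 for Mzb1 and 0.11 for Prdm1. These describe arrays that share culture and hybridisation. With the fibroblast mean as a covariate the 24 h difference of Sdc1 was 0.12 (adjusted p = 0.472) and that of Tnfrsf17 -0.17 (adjusted p = 0.407). Those of Xbp1 (0.50, adjusted p = 0.0269) and Mzb1 (0.35, adjusted p = 0.0292) were as large or larger and passed. Without the first and the second 24 h array, which had the highest fibroblast means (9.58 and 9.16), Xbp1 and Mzb1 were called and Sdc1 was not (adjusted p = 0.108).

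**Figure D3:**
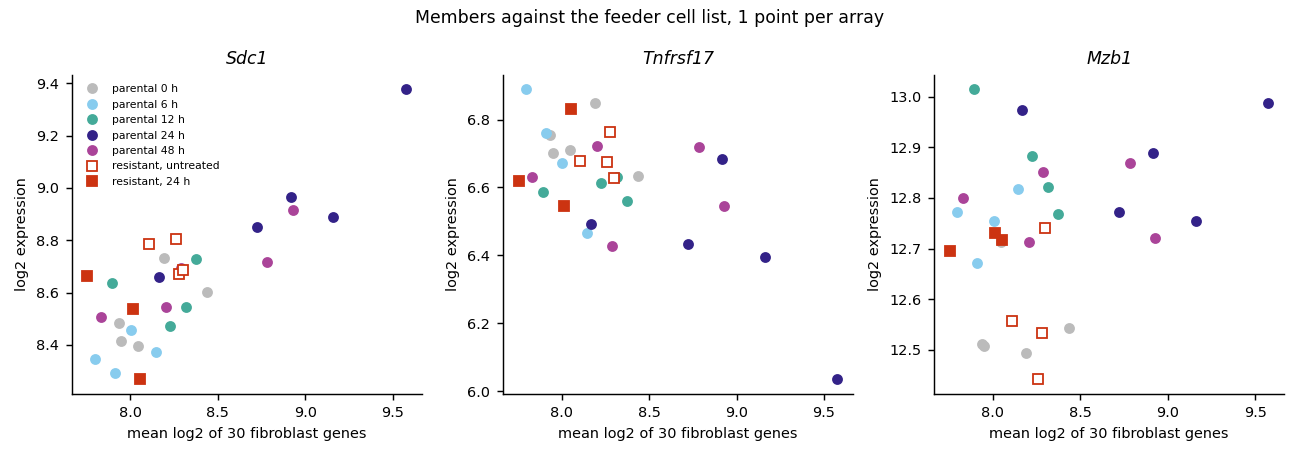
Log2 expression of Sdc1, Tnfrsf17 and Mzb1 (y axis) against the mean log2 of 30 fibroblast genes (x axis), 1 point per array, coloured by parental hour, with resistant lines as red squares. Sdc1 was highest on the 24 h array with the highest fibroblast mean (9.58), where Tnfrsf17 was lowest.

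The other syndecans behaved in the same fit as follows. Sdc2 and Sdc3, borne by many cells outside the B lineage, rose at 24 h by 1.30 (adjusted p = 0.0321) and 0.76 (adjusted p = 0.0486). Sdc4 differed by 0.04, so 2 of 3 rose, against 4.35% of all genes. Both calls were lost with array weights (adjusted p = 0.16 and 0.189) and in the model of both times alone (0.133 and 0.185). They were also lost without any one of the first or the second 24 h array, or the second, the third or the fifth 0 h array. That of Sdc3 was lost after housekeeping centring too (adjusted p = 0.0674). With the fibroblast mean as a covariate the values of Sdc2 and Sdc3 were -0.01 and -0.07, and neither passed. The part of feeder cell RNA in the Sdc1 and Tnfrsf17 calls was not tested beyond these values.

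Irf4 and Prdm1 stood lower at later times, but neither passed the test. Irf4 stood at 11.67, 11.38, 12.11, 12.20 and 12.06 at 0 h. The later values were 11.42, 11.73, 12.09 and 12.07 at 6 h, 11.41, 11.81, 11.97 and 12.00 at 12 h, 11.37, 11.10, 11.64, 11.77 and 11.74 at 24 h and 11.11, 11.01, 11.36, 11.55 and 11.58 at 48 h. The groups overlapped at every time, and the first and the second arrays were the lowest of their group at 0 h, 24 h and 48 h. The means went from 11.88 ± 0.35 at 0 h to 11.83 ± 0.32, 11.80 ± 0.27, 11.52 ± 0.29 and 11.32 ± 0.26 at 6, 12, 24 and 48 h. The differences from 0 h were -0.05, -0.08, -0.36 (SE 0.17, adjusted p = 0.174) and -0.56 (SE 0.17, adjusted p = 0.231).

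Arrays with the same number in the labels deviated together at 0 h and 24 h, so the 24 h comparison was also fitted with the number as a block. Irf4 then fell, with the same difference of -0.36 and an adjusted p of 0.000393, in a fit in which 23.6% of all genes passed. The 24 h calls of Xbp1, Mzb1, Sdc1 and Tnfrsf17 held in this fit. The change of Irf4 from 0 h to 24 h within a number was between -0.47 and -0.28, below 0 in 5 of 5 numbers. From 24 h to 48 h it was between -0.28 and -0.09, again below 0 in 5 of 5. Mzb1 was above its own 0 h array at 24 h in 5 of 5 numbers (0.25 to 0.46), Sdc1 in 5 of 5 (0.12 to 0.98) and Xbp1 in 4 of 5 (-0.03 to 0.80). Tnfrsf17 was below it in 4 of 5 (-0.67 to 0.05). At 6 h Xbp1 and Mzb1 were above their own 0 h array in 4 of 4 numbers, by 0.16 to 0.47 and 0.18 to 0.27, although with the block neither passed the test (adjusted p = 0.276 and 0.0548).

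**Figure D4:**
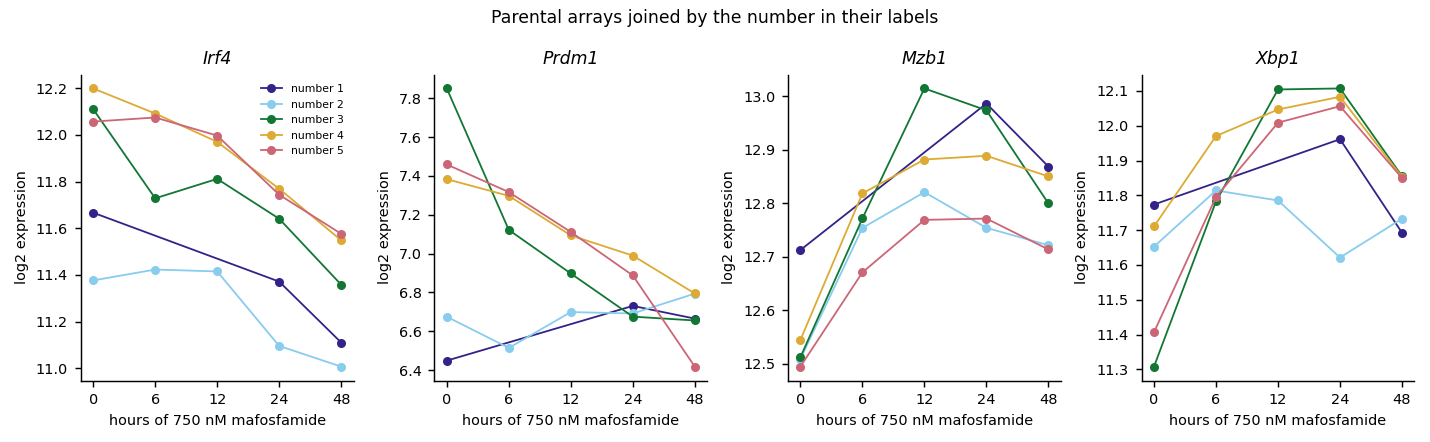
Log2 expression (y axis) of Irf4, Prdm1, Mzb1 and Xbp1 in parental arrays by hour of 750 nM mafosfamide (x axis, not to scale), joined by the number in the labels (number 1 has no array at 6 h and 12 h). For Irf4, numbers 1 and 2 lie below numbers 3, 4 and 5 at 0, 24 and 48 h.

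Prdm1 had the largest SD of the 6 genes at 0 h. It stood at 6.45, 6.67, 7.85, 7.38 and 7.46 at 0 h, at 6.51, 7.12, 7.30 and 7.32 at 6 h, and at 6.70, 6.90, 7.09 and 7.11 at 12 h. At 24 h the values were 6.73, 6.69, 6.67, 6.99 and 6.89, and at 48 h 6.66, 6.79, 6.66, 6.79 and 6.42. The high 0 h arrays were the third, the fourth and the fifth, and the spread narrowed from an SD of 0.58 at 0 h to 0.14 at 24 h and 0.15 at 48 h. The means were 7.16, 7.06, 6.95, 6.79 and 6.67 at 0, 6, 12, 24 and 48 h, and each group overlapped with 0 h. All these means lay below the array medians over genes (7.48 to 7.67). The differences were -0.37 at 24 h (SE 0.20, adjusted p = 0.211) and -0.50 at 48 h (SE 0.20, adjusted p = 0.357). Within a number, 24 h lay below 0 h in 3 of 5, between -1.18 and 0.28.

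To determine whether the 24 h levels were kept, 48 h was compared with 24 h. None of the 6 genes passed limma's test, against 0.105% of all genes. Where 6.77% of all genes had an unadjusted p under 0.05, 2 members did. These were Sdc1 (-0.27, 95% interval -0.49 to -0.06, adjusted p = 0.597) and Tnfrsf17 (0.20, 0.01 to 0.40, adjusted p = 0.718). Xbp1 differed by -0.17 and Mzb1 by -0.08, and Mzb1 was below its own 24 h array in 5 of 5 numbers (-0.17 to -0.03). These comparisons and those with 0 h share arrays.

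Of 46 measured secretory pathway genes and XBP1 targets, 10 rose at 24 h, 0 fell and 36 did not pass the test, while 4.35% of all genes rose and 2.43% fell. Their median difference was 0.20, against -0.04 over all genes, and 41 of 46 lay above 0. The 4 with the smallest p were Calr (calreticulin, 0.38, adjusted p = 0.000997), Hspa5 (the chaperone BiP, 0.47, adjusted p = 0.00102), Hsp90b1 (the chaperone GRP94, 0.36, adjusted p = 0.00185) and Pdia3 (a disulfide isomerase, 0.47, adjusted p = 0.00207). The others were the disulfide isomerase genes Pdia4 (0.34), Pdia5 (0.51) and Pdia6 (0.53), the chaperone gene Hyou1 (0.38), Sdf2l1 (0.37), whose product works with BiP, and Derl3 (0.57), which acts in ER-associated degradation. The lowest value of the list was that of Herpud1 (-0.25, adjusted p = 0.21), also of ER-associated degradation.

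These counts differed between settings, as did the calls over all genes, and the 2 did not always move together. In the fit as reported 10 of the 46 and 6.78% of all genes were called. After median centring it was 8, against 9.11% of all genes, and with array weights 12, against 5.01%. With the number as a block 26 of the 46 were called, 25 higher and Herpud1 lower, where 23.6% of all genes were called. With the fibroblast mean as a covariate 8 of the 46 and 2.59% of all genes were called, and Pdia5 was at 0.00. Without the first 0 h array 17 were called, against 12.2% of all genes, and without the third 5, against 2.63%. At 6 h, 12 h and 48 h limma called 0 of the 46, with medians of 0.00, 0.06 and 0.11. At these times 3, 8 and 10 of the genes had an unadjusted p under 0.05, all with values above 0. The shares over all genes were 5.13%, 11.9% and 11.7%. Without the first 0 h array 2 were called at 12 h and 6 at 48 h, where 179 and 219 of all genes were.

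**Figure D5:**
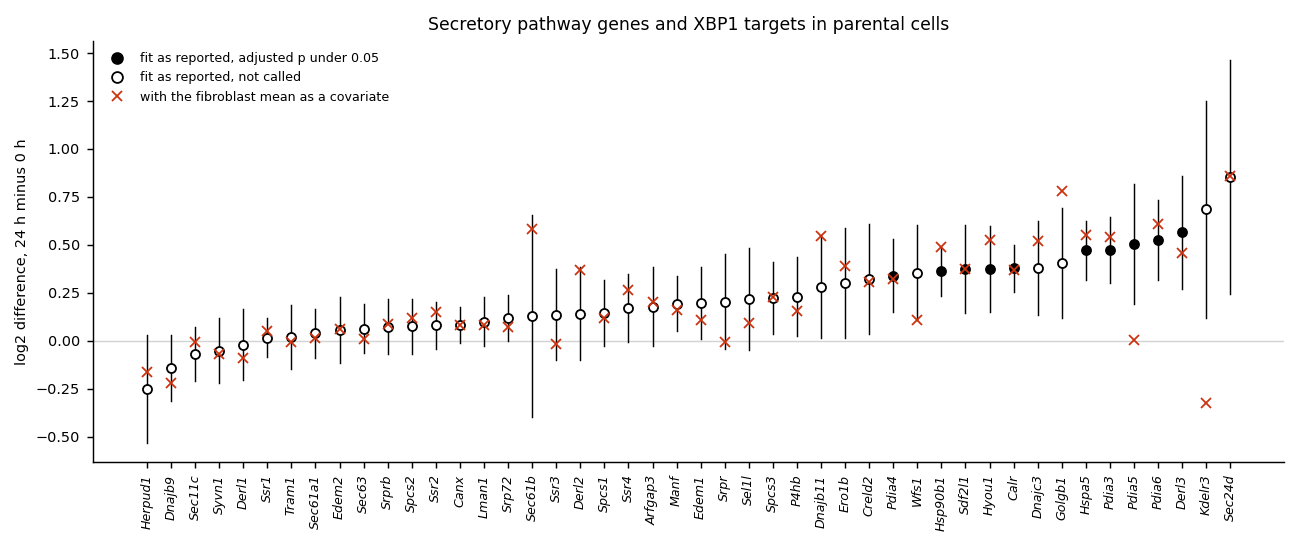
Log2 difference at 24 h against 0 h in parental cells (y axis, with 95% interval) of 46 secretory pathway genes and XBP1 targets, sorted by size. Filled points are the 10 genes with an adjusted p under 0.05, and crosses give the difference with the mean of 30 fibroblast genes as a covariate, at which Pdia5 and Kdelr3 move down most.

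The sensors above these genes were not called at 24 h. Of 7 measured, limma called 0 and the median was 0.07. An unadjusted p under 0.05 was found for 2, against 29.4% of all genes. Ern1, which encodes IRE1, differed by 0.26 (adjusted p = 0.089), Ern2, its paralog, by -0.24 (adjusted p = 0.0743), Atf6 by 0.10 and Eif2ak3, which encodes PERK, by 0.08.

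Among other genes that accompany plasma cells, 1 of 26 changed at 24 h, no larger a share than the 6.78% over all genes. With the number as a block 7 rose and 1 fell, where 23.6% of all genes passed. The 1 gene called without the block was Cxcr4, which encodes a chemokine receptor and fell by 0.55 (SE 0.12, adjusted p = 0.0135), and the median of the list was 0.00. This call was lost with the fibroblast covariate (adjusted p = 0.0686), without the first and the second 24 h array, and when the other times were left out of the model. Jchain, the joining chain of secreted IgM and IgA, differed by 0.04, Ighm by -0.12 and Igha by -0.35, none of which passed. Zbtb20 (0.36, adjusted p = 0.0896), Cd93 (0.27, adjusted p = 0.0926) and Creb3l2 (0.43, adjusted p = 0.103) did not pass either. At 12 h the stress-induced, p53-responsive gene Trp53inp1 rose by 0.85 (SE 0.13, adjusted p = 0.00183), 1 of 26, against 0.512% of all genes. It stood lower at 48 h than at 24 h, falling by 0.78 (adjusted p = 0.00618), again 1 of 26, against 0.105% of all genes. This call was lost without the first and the second 24 h array and in the model of those times alone. At 48 h Glcci1 fell by 0.31 (adjusted p = 0.0218), the 1 companion of 26 called there, against 0.251% of all genes. An unadjusted p under 0.05 was found there for 5 of the 26, all lower, against 11.7% of all genes. No companion was called at 48 h after median centring, in the model of 0 h and 48 h alone, or without any one of the first, the third or the fourth 48 h array or the third, the fourth or the fifth 0 h array. Of the 3 measured genes of the BAFF and APRIL system other than Tnfrsf17, Tnfrsf13b (TACI, 0.04), Tnfrsf13c (the BAFF receptor, -0.11) and Tnfsf13b (BAFF, 0.00), none passed at any time, nor had an unadjusted p under 0.05.

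The transcription factors on the B-cell identity list, several of which Blimp-1 represses in plasma cells, did not pass limma's test at 24 h (0 of 18, median 0.03). The list is broad, and not every factor on it holds B-cell identity. An unadjusted p under 0.05 was found for 6 of the 18, against 29.4% of all genes. Pax5 differed by 0.03, Bcl6 by 0.10, Bach2 by -0.14, Spib by -0.10 and Ciita by 0.47 (adjusted p = 0.135). The 2 with the smallest p were Batf (0.24, adjusted p = 0.0564) and Ebf1 (-0.18, adjusted p = 0.112). At 48 h Ebf1, which encodes an early B-cell factor, fell by 0.37 (SE 0.07, adjusted p = 0.0211), 1 of 18, against 0.251% of all genes. No identity factor was called there under the same settings that left no companion. Of 10 B-cell surface genes 1 rose at 24 h, against 4.35% of all genes. This was Cr2 (complement receptor CD21, 0.74, adjusted p = 0.0227, but not called in the model of both times alone). The antigen receptor subunits Cd79a and Cd79b differed by -0.03 and -0.06.

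To determine whether resistant cells held the programme at another level, the 4 untreated lines were compared with parental cells at 0 h. None of the 6 genes passed limma's test, against 0.0752% of all genes (15 genes). Where 7.1% of all genes had an unadjusted p under 0.05, 2 members did. Prdm1 stood at 6.75 in R100, 6.38 in R500, 6.53 in R1000 and 6.67 in R4000. These lie at the lower end of the wide parental range, and R500 lay below it. The difference was -0.58 (SE 0.25, 95% interval -1.12 to -0.04, adjusted p = 0.653). Sdc1 stood at 8.80, 8.67, 8.79 and 8.69 in the same order, R100 and R1000 above the highest parental array, with a difference of 0.21 (0.02 to 0.41, adjusted p = 0.642).

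Irf4 stood at 11.51, 11.57, 11.58 and 11.76 in R100, R500, R1000 and R4000, all inside the parental 0 h range, and differed by -0.27 (95% interval -0.62 to 0.07, adjusted p = 0.805). Xbp1 stood at 11.38, 11.40, 11.46 and 11.61, also inside the range, and differed by -0.11 (-0.35 to 0.13). Mzb1 stood at 12.44, 12.53, 12.56 and 12.74, with R100 below and R4000 above the parental arrays, and differed by 0.01 (-0.17 to 0.20). Xbp1, Mzb1 and Irf4 each stood in the order R100, R500, R1000, R4000 from low to high. The order was shared by the means of the B-cell identity factors (10.47, 10.55, 10.61 and 10.67) and B-cell surface genes (10.99, 11.11, 11.17 and 11.24). The means of the secretory and companion lists did not follow it. The interquartile range over genes was narrowest in R100 (3.36) and widest in R4000 (3.65). Tnfrsf17 stood at 6.68, 6.76, 6.68 and 6.63, with R4000 just below the parental arrays, and differed by -0.04 (-0.21 to 0.12).

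A slope fitted over successive steps of resistance, from parental cells to R4000, gave no call for any member, and 0% of all genes passed (limma, 869 genes and 0 members with an unadjusted p under 0.05). The largest slope in size was that of Prdm1, -0.17 log2 per step (95% interval -0.37 to 0.02, adjusted p = 0.881). The slopes of the other 5 lay between -0.06 for Irf4 and 0.06 for Sdc1.

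No secretory pathway gene passed between untreated resistant and parental cells (limma, 0 of 46, median 0.03). An unadjusted p under 0.05 was found for 3 of the 46, against 7.1% of all genes. The smallest p in the list was that of Sec11c (-0.30, adjusted p = 0.398). None of the 18 identity factors passed either (4 with an unadjusted p under 0.05, against the same 7.1% of all genes). Of the 18, Bcl6, a repressor of Prdm1, had the smallest p (0.53, adjusted p = 0.217). Of the 26 companions 1 was called, against 0.0752% of all genes. An unadjusted p under 0.05 was found for 9 of them, 7 lower and 2 higher, against 7.1% of all genes. The call was that of Trp53inp1, which fell by 0.78 (SE 0.10, adjusted p = 0.0262). It was lost without R100, R500 or R1000 (adjusted p between 0.163 and 0.187) or without the fourth 0 h array (adjusted p = 0.0661). Lax1 (-0.79, adjusted p = 0.0769), a signalling adaptor, and Cxcr4 (-0.70, adjusted p = 0.226) did not pass.

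To determine whether resistant cells responded as parental cells did, the 3 lines with treated arrays were compared before and after 24 h of drug. None of the 6 genes passed limma's test, against 0.0301% of all genes, and 0 had an unadjusted p under 0.05. Xbp1 went from 11.40 to 11.75 in R500, from 11.46 to 11.76 in R1000 and from 11.61 to 11.53 in R4000. Mzb1 went from 12.53 to 12.72, from 12.56 to 12.73 and from 12.74 to 12.69. Both genes were thus higher after drug in R500 and R1000 and lower in R4000. The mean differences were 0.19 for Xbp1 (95% interval -0.13 to 0.51) and 0.10 for Mzb1 (-0.10 to 0.31).

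The secretory genes had a median difference of 0.08 in the treated lines, against -0.02 over all genes, and 31 of 46 lay above 0. Limma called 0 of them. Where 2.9% of all genes had an unadjusted p under 0.05, 4 of the 46 did, all above 0. These were Derl3 (0.57, adjusted p = 0.343), Sdf2l1 (0.34), Hspa5 (0.28) and Calr (0.21), the last 3 with an adjusted p of 1.

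Sdc1 was lower after drug in all 3 lines, from 8.67 to 8.27 in R500, from 8.79 to 8.54 in R1000 and from 8.69 to 8.66 in R4000 (mean -0.23, -0.55 to 0.10). Irf4 was lower in all 3, by -0.15, -0.20 and -0.18 (mean -0.18, -0.62 to 0.27), and stood at 11.42, 11.39 and 11.58 after drug. Prdm1 stood at 6.74, 6.61 and 6.68 after drug, with changes of 0.36, 0.08 and 0.01, and Tnfrsf17 at 6.83, 6.54 and 6.62, with changes of 0.07, -0.13 and -0.01. The fibroblast means after drug were 8.05, 8.01 and 7.75, below each line's own untreated array (8.28, 8.11 and 8.30) and below every parental 24 h array.

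The difference between the resistant and the parental response was tested directly. None of the 6 genes passed limma's test, and 0% of all genes did. An unadjusted p under 0.05 was found for 1562 genes and 1 member. This was Sdc1, whose response was lower in the resistant lines by -0.65 (95% interval -1.06 to -0.24, adjusted p = 0.356), or -0.20 with the fibroblast mean as a covariate. The difference was -0.21 for Xbp1 (-0.61 to 0.20), -0.22 for Mzb1 (-0.47 to 0.04), 0.30 for Tnfrsf17 (-0.05 to 0.65), 0.52 for Prdm1 (-0.22 to 1.25) and 0.18 for Irf4 (-0.38 to 0.74). The secretory genes had a median of -0.12, against 0.02 over all genes, with 14 of 46 above 0 and 0 called by limma. An unadjusted p under 0.05 was found for 2 of them, against 7.83% of all genes. These comparisons share the parental arrays at 0 h with the time course.

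The genes whose pattern was most like each member were ranked by Pearson's r over the 30 arrays, with r over the 12 group means beside it, as a description. Arrays share culture and hybridisation. Xbp1 was followed most closely by Rogdi (0.88 over arrays, 0.87 over group means), Pde6d (0.88, 0.89) and Rhbdf2 (0.88, 0.94), and Mzb1 by Cdc42bpg (0.88, 0.91), Pde6d (0.87, 0.96) and Rogdi (0.87, 0.95). Xbp1 and Mzb1 correlated with each other at 0.83 and 0.93, and 2 of their 3 nearest genes were shared. Sdc1 lay nearest to Ajuba (0.88, 0.88), Fgf7 (0.88, 0.79) and Pdia5 (0.87, 0.72), the last of these also on the secretory list. Irf4 lay nearest to Smarca4 (0.93, 0.92), Rag1 (0.91, 0.61) and Hdac5 (0.91, 0.83), and Prdm1 to Gse1 (0.89, 0.74), Lpin2 (0.88, 0.81) and Pip5k1c (0.87, 0.80). Irf4 and Prdm1 correlated at 0.73 over arrays and 0.63 over group means. Tnfrsf17 lay nearest to Rdh16f2 (0.86, 0.94), Lrp2bp (0.85, 0.84) and Trpv5 (0.82, 0.80).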

How the data were processed

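RNA from 30 cultures was hybridised to Affymetrix Mouse Gene ST 1.0 arrays. The authors computed RMA values with justRMA (affy) and deposited them as log2 expression. RMA gives the probe intensities of all arrays the same distribution, which hides any change in RNA content per cell, and it compresses differences at low signal. The summarised gene values still differed in spread between arrays. The number of arrays limits the precision. RMA, affy and build mm9 are named in the submitters' processing notes, while promoter windows are from RefSeq GRCm38.p6.

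Groups came from the sample labels. Of 34760 probe sets, 21640 carried a single symbol in the platform annotation, 1321 several and 11799 none here. Entrez identifiers of 21553 were found in RefSeq. The probe set of highest mean stood for each of 954 genes with several, which left 19937 genes.

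Comparisons were fitted with limma 3.58.1 in R 4.3.3 (lmFit, eBayes), and p-values were adjusted by Benjamini-Hochberg over all genes and called below 0.05. A first fit held the 23 parental arrays, another the 4 untreated lines and the 5 arrays at 0 h, and another 16 arrays, treated lines included, in which every line had its own term. The fits were tested on simulated data. The members and lists were chosen with earlier results of these data known. Named are all members, up to 4 genes of smallest p of a related list at 24 h and in resistant cells, genes called elsewhere, some list genes picked for their role after their values were seen, and the 3 nearest genes of each member.

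Alternatives were median and housekeeping centring, a filter at the 25th percentile, array weights, a fibroblast covariate, fits of only the groups compared, replicate blocks and leaving out each array. Leaving out 2 arrays of high fibroblast mean was added after seeing the data. The numbers in titles and descriptions differ at 6 h and 12 h, and those in the descriptions are used. Deviations from group means correlated between same-numbered arrays at 0.07 to 0.77 (43 pairs, median 0.40), and all pairs were above 0.1 for 0 h with 6 h, 0 h with 24 h and 24 h with 48 h, but not for 0 h with 12 h or 48 h. The pairing thus comes from this check, as no label says what a number shares.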

Additional observations from a re-analysis of the deposited data

Results flagged for a closer look

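Each of the 6 genes was examined in each of the 5 parental groups for an array far from the others, 30 tests in which chance alone marks about 1 in 20. In 2 of them an array stood apart. Xbp1 on the 6 h array with number 4 was at 11.97, above 11.78 to 11.81 on the others. Mzb1 on the 0 h array with number 1 was at 12.71, above 12.49 to 12.54 on the others.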

How the results depend on the processing

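Of the 6 members, 4 were called at 24 h, where 1351 of all genes were. The count was 2 with the fibroblast covariate (Xbp1 and Mzb1, 517 of all genes called). It was 2 without the first and the second 24 h array (557) and 0 in a fit of only the 0 h and 24 h arrays (122). Leaving out single arrays gave 1 to 5 (524 to 2678 of all genes). At 12 h, where 1 was called, the count was 0 after median centring and with only both groups, and 2 with housekeeping centring, array weights, the fibroblast covariate or the replicate block by description number, and 0 to 2 when single arrays were left out. At 48 h 0 were called, where 50 of all genes were. The replicate block gave 2 by description number (Mzb1 higher, Irf4 lower, 654 of all genes) and 1 by title number (197). Leaving out single arrays gave 0 to 1 (1 without the first 0 h array, where 219 of all genes were called). The 10 secretory genes called at 24 h (6.78% of all genes called) were 6 with housekeeping centring (5.53%), 3 with only both groups (0.612%), 26 with the replicate block (23.6%) and 5 to 17 when single arrays were left out (2.63% to 13.4%). Of these genes 0 were called at 12 h and 48 h (102 and 50 of all genes). With the replicate block by description number 4 and 5 were called (708 and 654 of all genes). With array weights 3 were called at 12 h (279 of all genes) and 1 at 48 h. With the fibroblast covariate Sdc2 (-0.00901) and Sdc3 (-0.066) changed sign and were not called. The counts at 6 h, at 48 h against 24 h and in the 4 comparisons of resistant lines were 0 under every alternative run. Housekeeping centring moved the median of all genes from -0.04 to -0.10 at 24 h and from -0.02 to -0.12 at 48 h. Over 2458 values of single genes under an alternative, 37 differences that were not called changed sign, and 0 of those were called in the alternative. Where the gene was called in the fit as reported, 313 values kept the call, 77 lost it and 2 changed sign. Where it was not called, 57 values became called. Causes were not tested. The fits of only both groups and of left-out arrays also hold fewer arrays. Having 1 array per resistant line and condition limits the precision of those comparisons.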
